A study of Mus musculus with 13 samples.

Results

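Whole organoids grown from wild-type (WT) mouse small intestine were compared with WT stem cells sorted from the ileum of living mice. The 4 libraries were picked by their labels and not by any measured value: 2 WT organoid and 2 WT ileal intestinal stem cell libraries, of 13 libraries in the series. The series as a whole follows loss of Apc, a gene that holds Wnt signalling in check, and these are its groups with no Apc deletion by their labels. Gene expression was measured by RNA-seq of polyA RNA. The organoids are labelled WT in genotype, from adult animals given 2 tamoxifen doses of 1 mg, with ileal crypts plated and a time point of 10 days. Whole organoids were collected, with no selection of a cell type. The stem cells came from adult mice labelled Apcfl/fl;Lgr5DTR-GFP;Rosa26tdTomato, with no Cre named, given the same tamoxifen doses and taken at 21 days by flow cytometry. Lgr5DTR-GFP places a toxin receptor and a green fluorescent protein at the Lgr5 locus, so an Lgr5 allele is modified in these animals. The gate of the sort is not given in the sources used here. Whether replicates came from different mice or cultures is not stated. The p-values therefore rest on the spread between libraries, which may be partly technical.

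In the small intestine, Lgr5-marked stem cells at the crypt base divide under Wnt signals supplied by Paneth cells and by the surrounding stroma. Their daughters become absorptive enterocytes or secretory cells, which are the goblet, Paneth, enteroendocrine and tuft cells. An organoid rebuilds this epithelium in gel and growth factor medium, without stroma, immune cells, microbes or bile. Sorted cells bring the state of the living gut with them, and also what happens to them while tissue is taken apart and passed through a sorter.

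Total gene counts were 13631423 and 21306261 in the organoid libraries and 15573041 and 18609373 in the stem cell libraries. Unmapped reads made up 2.58% and 2.99% of the organoid libraries and 13.9% and 5.01% of the stem cell libraries. Levels below are in CPM, counts per 1e6 gene counts after scaling between libraries, and are given for replicates 1 and 2 in that order. The groups differ in more than culture. Xist, the RNA of the inactive X chromosome, had 3 and 6 counts in the organoids and 11062 and 14057 in the stem cells. The Y-linked gene Ddx3y had 870 and 1047 counts in the organoids and 0 in both stem cell libraries. Uty, Kdm5d and Eif2s3y, also Y-linked, had no count in the stem cells and 640 to 1455 counts per organoid library. Sex, genotype label, time point, isolation and material all change together between the groups, and cannot be told apart in any result below. The common extraction text speaks of the duodenum, while the labels of single samples say ileal, so region was checked against marker genes further on. Apc itself was at 165 and 144 CPM in the organoids and 118 and 133 CPM in the stem cells (log2 fold change 0.30 ± 0.14 SE, adjusted p = 0.247), and did not pass the test; a count over the whole gene does not show whether a floxed part is present.

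Of 12978 genes tested with edgeR's quasi-likelihood test, 473 (3.64%) were higher in organoids and 553 (4.26%) were lower at a Benjamini-Hochberg adjusted p under 0.05, together 1026 (7.91%). A gene with this adjusted p is called higher or lower in what follows, and signs are organoid minus stem cell. Every fold change printed without a p belongs to a called gene. The median log2 fold change over all genes tested was 0.00309, which the scaling places near 0. The 2 libraries of each group did not overlap for 7610 genes (58.6%), 3752 higher (28.9%) and 3858 lower (29.7%), a share that includes many differences too small for the test. Gene lists are read below against these shares. Without organoid replicate 2, 1783 genes were called, and with all 13 libraries in the fit 589 were.

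**Figure D1:**
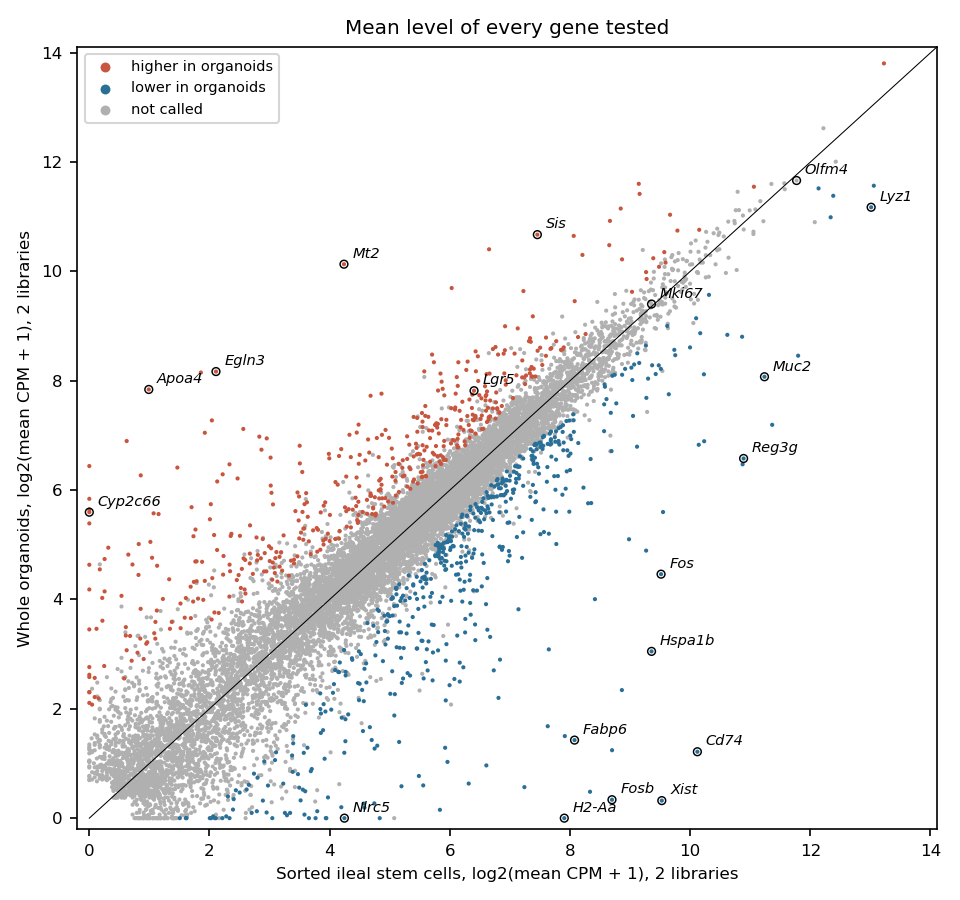
Mean level of each of the 12978 genes tested, log2(mean CPM + 1), in the 2 stem cell libraries (x axis) and the 2 organoid libraries (y axis), with the 473 genes called higher in organoids in red, the 553 called lower in blue and the others in grey. Olfm4 and Mki67 lie on the diagonal, Mt2, Apoa4 and Egln3 far above it, and H2-Aa, Cd74 and Fosb far below.

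Lgr5 was higher in whole organoids than in the sorted cells, and the stem cell markers Olfm4 and Ascl2 did not pass the test. Of 37 tested members of the intestinal stem cell signature, 3 were higher in organoids and 2 lower, with a median log2 fold change of 0.10. Lgr5, the R-spondin receptor that marks these cells (chromosome 10, 115450311 to 115587780, minus strand, GRCm38), was at 217 and 233 CPM in the organoids and 101 and 65.9 CPM in the stem cells. It was thus higher in the unsorted organoids than in cells sorted from Lgr5 reporter mice, without overlap (log2 fold change 1.43 ± 0.22 SE, adjusted p = 0.0154). An Lgr5 allele is modified in those mice, and its part in this difference was not tested. Olfm4, a secreted stem cell marker, was at 1695 and 4793 CPM in the organoids and 3117 and 3873 CPM in the stem cells. The organoid libraries stood on either side of both stem cell libraries for Olfm4 (log2 fold change -0.11 ± 0.43 SE, adjusted p = 0.902). The transcription factor Ascl2 was at 30.5 and 53.9 CPM in the organoids and 39.1 and 40.5 CPM in the stem cells (log2 fold change 0.09 ± 0.28 SE, adjusted p = 0.873). The Wnt feedback gene Axin2 was at 234 and 406 CPM in the organoids and 342 and 306 CPM in the stem cells (log2 fold change -0.02 ± 0.26 SE, adjusted p = 0.978); neither was called. Slc14a1, a urea transporter in the signature, was lower in organoids, at 9.14 and 7.02 against 61.3 and 59.8 CPM (log2 fold change -2.91 ± 0.22 SE). Phlda1, another member, was higher, at 189 and 208 against 87.96 and 103 CPM (log2 fold change 1.06 ± 0.14 SE). In the list of Wnt feedback and target genes, 2 of 25 tested members were higher in organoids and 2 were lower, with a median log2 fold change of -0.02. Fzd7, a Wnt receptor of stem cells, was higher, at 80.7 and 84.2 against 39.2 and 40.1 CPM (log2 fold change 1.06 ± 0.14 SE). Mmp7, made by Paneth cells and also in this list, was lower, at 288 and 306 against 792 and 667 CPM (log2 fold change -1.30 ± 0.15 SE). Calls were lost with all 13 libraries in the fit for Phlda1 and Mmp7. Over 20% of the 31-base words in the transcripts of Phlda1 also occur in transcripts of other genes, so its count is uncertain. Stem cell signature genes called higher numbered 9 by DESeq2 and 5 without organoid replicate 2. Wnt target genes called higher numbered 5 by DESeq2.

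The cell cycle genes had a median fold change near 0. Of 40 DNA replication and mitosis genes, 1 was called lower and edgeR called 0 higher (4 at an unadjusted p under 0.05, 2 called by DESeq2), with a median of -0.04. Mki67, which marks dividing cells, was at 703 and 650.1 CPM in the organoids and 639 and 671 CPM in the stem cells (log2 fold change 0.05 ± 0.13 SE, adjusted p = 0.851). Cdc20, an activator of the mitotic exit machinery, was the lower member, at 112 and 117 against 167 and 175 CPM (log2 fold change -0.58 ± 0.12 SE, adjusted p = 0.0419). Among genes of ribosome biogenesis, 1 of 30 tested members was higher in organoids and edgeR called 0 lower (0 at an unadjusted p under 0.05, 0 called by DESeq2), with a median log2 fold change of 0.16; the higher gene was Npm1, a nucleolar chaperone, at 999 and 1031 against 620.0 and 610.1 CPM (log2 fold change 0.72 ± 0.12 SE, adjusted p = 0.0211). Of cytosolic ribosomal protein genes, 3 of 39 tested members were higher in organoids and 1 was lower, with a median log2 fold change of 0.20, Rps24 the highest called at 1325 and 1096 against 711 and 626 CPM (log2 fold change 0.86 ± 0.15 SE, adjusted p = 0.024). Other fits ended calls without organoid replicate 1 for Cdc20, without stem cell replicate 1 for Cdc20 and Npm1, without stem cell replicate 2 or with all 13 libraries in the fit for Cdc20, Npm1 and Rps24. The counts of Cdc20 and Npm1 are uncertain by the same measure of shared sequence. Replication and mitosis genes called lower numbered 2 without organoid replicate 2 or by DESeq2 and 0 without organoid replicate 1 or stem cell replicate 1 or stem cell replicate 2 or with all 13 libraries in the fit. Ribosome biogenesis genes called higher numbered 0 without either stem cell replicate or with all 13 libraries in the fit and 2 without organoid replicate 1. Ribosomal protein genes called higher numbered 9 by DESeq2, 0 without stem cell replicate 2 or with all 13 libraries in the fit, 6 without organoid replicate 2 and 1 without stem cell replicate 1.

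**Figure D2:**
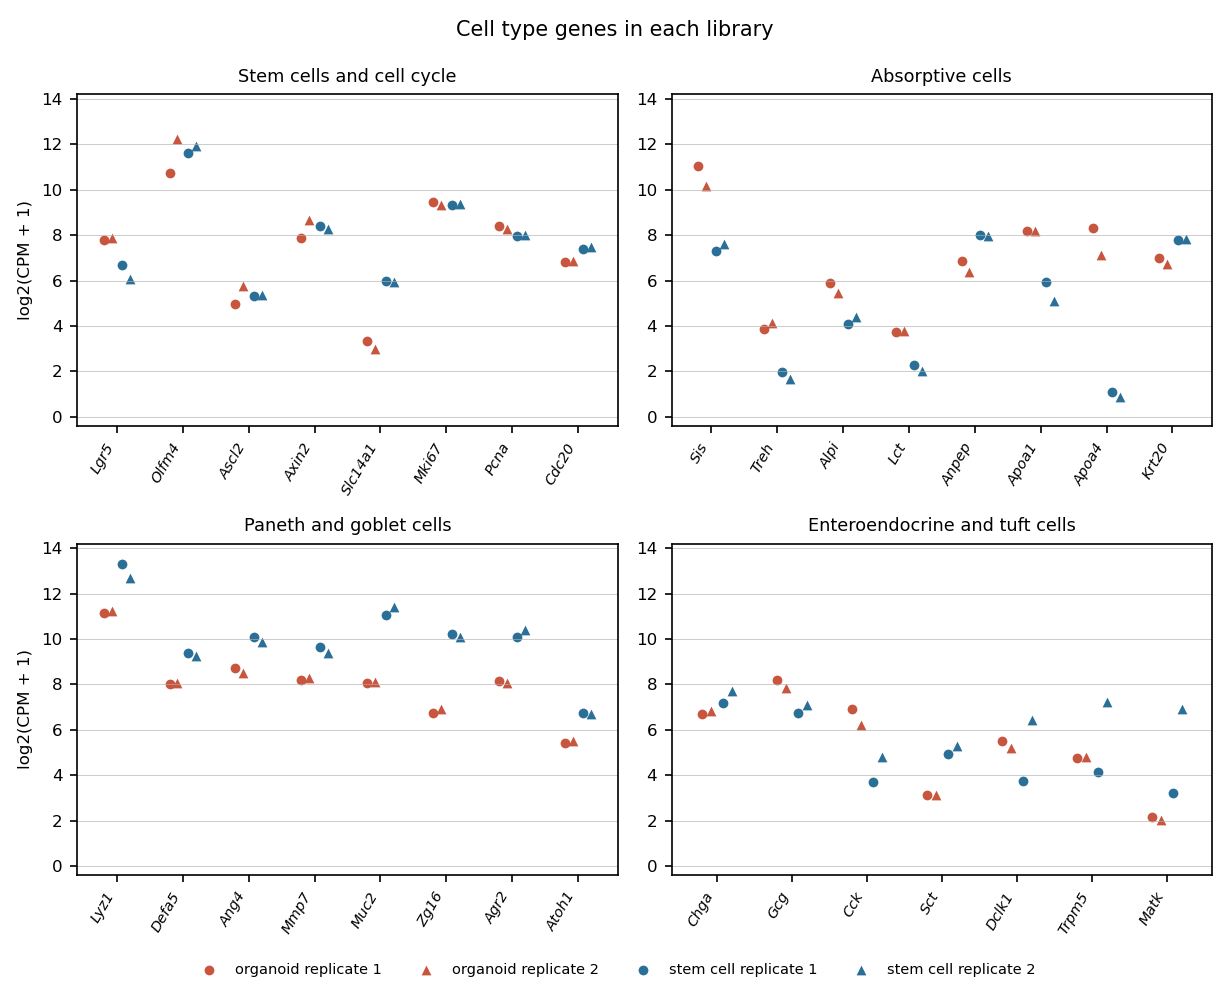
Level of selected cell type genes, log2(CPM + 1), in each of the 4 libraries (red organoids, blue stem cells, circle replicate 1, triangle replicate 2), in 4 panels. Stem and cell cycle genes other than Lgr5 and Slc14a1 lie close together, enterocyte genes other than Anpep and Krt20 are higher in organoids, Muc2, Zg16 and Lyz1 are lower in organoids, and Trpm5 and Matk are high in stem cell replicate 2 alone.

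Enterocyte genes were higher in organoids in part of each list. Among brush border enzymes and structural genes, 6 of 26 tested members were higher in organoids and 1 was lower, with a median log2 fold change of 0.02. Sis, the sucrase-isomaltase of the brush border, was at 2104 and 1161 CPM in the organoids and 156 and 194 CPM in the stem cells (log2 fold change 3.22 ± 0.31 SE, adjusted p = 0.0036). Both organoid libraries were far above both stem cell libraries for Sis, with replicate 1 above replicate 2. Further higher members were Treh, Alpi, Mme and Lct, with log2 fold changes from 1.48 to 3.39. Anpep, aminopeptidase N, went the other way, at 114 and 81.9 against 254 and 248 CPM (log2 fold change -1.36 ± 0.18 SE, adjusted p = 0.0104). Among genes of fat absorption, 5 of 23 tested members were higher in organoids and edgeR called 0 lower (1 at an unadjusted p under 0.05, 0 called by DESeq2), with a median log2 fold change of 0.63. Apoa4, an apolipoprotein of chylomicrons (chromosome 9, 46240696 to 46243459, plus strand), was at 317 and 140.1 CPM in the organoids and 1.16 and 0.816 CPM in the stem cells (log2 fold change 7.86 ± 0.53 SE, adjusted p = 0.00151). Apoa1, a partner on the same particles, was at 289 and 286 against 60.4 and 32.95 CPM (log2 fold change 2.62 ± 0.29 SE, adjusted p = 0.00562). Creb3l3, a transcription factor of apolipoprotein genes, was at 23.4 and 24.5 against 0.257 and 1.03 CPM (log2 fold change 5.16 ± 0.58 SE). These genes were far lower in the stem cells, and Apoa4 was close to 0 there. Fabp1, the liver-type fatty acid binding protein, was at 48.4 and 7.52 against 1.16 and 21.2 CPM, with wide spread in both groups (log2 fold change 1.30 ± 1.23 SE, adjusted p = 0.553). Some calls did not hold, without organoid replicate 1 or organoid replicate 2 or stem cell replicate 2 for Lct, with all 13 libraries in the fit for Treh, Alpi, Lct and Apoa1. The count of Apoa4 is uncertain by the same measure of shared sequence. Brush border genes called higher numbered 3 with all 13 libraries in the fit. Those called lower numbered 4 by DESeq2 and 5 with no count filter. Fat absorption genes called higher numbered 10 without organoid replicate 2 or by DESeq2.

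Nutrient transporters gave 2 higher and 2 lower of 24, median 0.61. The amino acid transporter subunit Slc3a1 was higher at 56.1 and 51.7 against 12.5 and 10.2 CPM (log2 fold change 2.25 ± 0.21 SE, adjusted p = 0.0036). The duodenal iron reductase Cybrd1 was higher at 142 and 49.6 against 9.19 and 5.003 CPM (log2 fold change 3.76 ± 0.57 SE, adjusted p = 0.0146). Slc7a8, another amino acid carrier, was lower at 36.2 and 39.8 against 69.4 and 64.7 CPM (log2 fold change -0.82 ± 0.16 SE, adjusted p = 0.0317). The glucose carrier Slc5a1 was at 584 and 347 against 232 and 188 CPM and just missed the threshold (log2 fold change 1.15 ± 0.26 SE, adjusted p = 0.0517). For genes of the villus tip, where enterocytes end their life, 4 of 17 tested members were higher in organoids and 6 were lower, with a median log2 fold change of -0.28. Apoa4, Creb3l3, Cdkn1a and Emp1 were the higher members, Emp1 at 169 and 94.6 against 24.7 and 17.1 CPM (log2 fold change 2.66 ± 0.33 SE). Of the lower members, Fos, Zfp36, Atf3 and Klf4 are also immediate early genes, described below. Krt20, a keratin of mature enterocytes, was lower at 128 and 104 against 218 and 228 CPM (log2 fold change -0.94 ± 0.15 SE), as was the adhesion molecule Ceacam1. In bulk libraries such as these, fewer cells of a type and less RNA per cell cannot be told apart. In alternative fits calls fell away without organoid replicate 1 or stem cell replicate 1 for Slc7a8, without stem cell replicate 2 for Slc7a8 and Ceacam1, with all 13 libraries in the fit for Cybrd1, Slc7a8, Krt20 and Ceacam1. The counts of Slc3a1, Apoa4 and Ceacam1 are uncertain by the same measure of shared sequence. Nutrient transporters called higher numbered 5 without either stem cell replicate or by DESeq2 and 7 without organoid replicate 2.

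Goblet and Paneth cell genes were lower in whole organoids than in the cells sorted as stem cells. Of 28 goblet cell genes, 21 were lower and edgeR called 0 higher (0 at an unadjusted p under 0.05, 0 called by DESeq2), with a median log2 fold change of -1.48. Muc2, the gel-forming mucin of intestinal mucus (chromosome 7, 141690340 to 141754693, plus strand), was at 264 and 273 CPM in the organoids and 2140.0 and 2686 CPM in the stem cells (log2 fold change -3.17 ± 0.16 SE, adjusted p = 0.000757). Zg16, a lectin of the mucus layer, was at 104 and 121 against 1185 and 1076 CPM (log2 fold change -3.32 ± 0.16 SE, adjusted p = 0.000687). Agr2, a disulfide isomerase needed to fold mucin, was at 285 and 269 against 1076 and 1324 CPM (log2 fold change -2.11 ± 0.15 SE, adjusted p = 0.00183). Fcgbp, a mucus protein, was at 2935 and 3139 against 7559.5 and 9487 CPM (log2 fold change -1.49 ± 0.13 SE, adjusted p = 0.00275). The replicates of each group lay close together for these genes and the groups were far apart. Regulators of the lineage moved with the products: Spdef was at 26.7 and 33.5 against 103 and 131 CPM (log2 fold change -1.95 ± 0.20 SE). Atoh1, the switch to secretory fate, was at 41.98 and 43.7 against 107 and 102 CPM (log2 fold change -1.28 ± 0.14 SE). Bcas1, another member, was at 21.3 and 18.7 against 96.3 and 98.96 CPM (log2 fold change -2.29 ± 0.16 SE). Clca1 and Reg4 did not pass the test. The summed level of the list was 6097 and 6394 CPM in the organoids and 17299 and 20183 CPM in the stem cells. Not all calls held, with losses with all 13 libraries in the fit for Fcgbp and Spdef. Goblet cell genes called lower numbered 9 with all 13 libraries in the fit.

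Of 27 tested Paneth cell products, 9 were lower and edgeR called 0 higher (2 at an unadjusted p under 0.05, 2 called by DESeq2), with a median of -1.08. Lyz1, the Paneth cell lysozyme, was at 2257 and 2365 CPM in the organoids and 9951 and 6575 CPM in the stem cells (log2 fold change -1.84 ± 0.19 SE, adjusted p = 0.00494). Ang4, an antimicrobial ribonuclease, was at 420.1 and 359.7 against 1101 and 943 CPM (log2 fold change -1.39 ± 0.15 SE, adjusted p = 0.00576). Pla2g2a, a secreted phospholipase, was at 2124 and 1946 against 4103 and 6257 CPM (log2 fold change -1.35 ± 0.20 SE, adjusted p = 0.0141). Spink4 was at 461 and 474 against 1173 and 1127 CPM (log2 fold change -1.30 ± 0.12 SE, adjusted p = 0.0036). The defensin Defa5 was at 259.6 and 265 against 658 and 601 CPM (log2 fold change -1.26 ± 0.13 SE). Every called member was higher in both sorted libraries. Defa17, a defensin with near-identical copies, was at 399 and 503 against 464 and 343 CPM (log2 fold change 0.16 ± 0.20 SE, adjusted p = 0.659) and was not called. The summed level was 9197 and 10814 CPM in the organoids and 25028 and 25194 CPM in the stem cells; how much of it comes from Paneth or goblet cells in the gate was not tested. Calls were lost with all 13 libraries in the fit for Lyz1, Ang4, Pla2g2a, Spink4 and Defa5. The counts of Lyz1, Defa5 and Defa17 are uncertain by the same measure of shared sequence. Paneth cell products called lower numbered 2 with all 13 libraries in the fit. The count of 0 higher did not hold without stem cell replicate 2, and was 3 with no count filter.

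Enteroendocrine genes split by hormone. Over the list, 4 of 32 tested members were higher in organoids and 1 was lower, with a median log2 fold change of -0.11. Cck, cholecystokinin, was higher in organoids at 121 and 71.9 against 11.9 and 26.97 CPM (log2 fold change 2.30 ± 0.43 SE, adjusted p = 0.0284). Gcg, which encodes the glucagon-like peptides, was higher at 288 and 225 against 106 and 136 CPM (log2 fold change 1.08 ± 0.19 SE, adjusted p = 0.0242). Nts, neurotensin, was higher at 74.5 and 46.8 against 6.43 and 15.99 CPM (log2 fold change 2.43 ± 0.45 SE, adjusted p = 0.0295). Sct, secretin, was lower at 7.80 and 7.66 against 29.9 and 37.4 CPM (log2 fold change -2.12 ± 0.24 SE, adjusted p = 0.0063). The pan-endocrine granule gene Chga was at 102 and 113 against 144 and 207 CPM (log2 fold change -0.70 ± 0.20 SE, adjusted p = 0.085). The precursor gene Neurog3 was at 7.36 and 11.7 against 9.19 and 8.43 CPM (log2 fold change 0.12 ± 0.37 SE, adjusted p = 0.873), neither called. Of 22 tested tuft cell genes, edgeR called 0 higher (0 at an unadjusted p under 0.05, 0 called by DESeq2) and 0 lower (4 and 1), with a median of -1.58. The stem cell replicates disagreed about them. The count of 0 lower did not hold without stem cell replicate 1, and was 10 with no count filter. Trpm5, the tuft cell taste channel, was at 26.4 and 27.1 against 16.8 and 147 CPM, and Matk, a kinase, at 3.42 and 3.03 against 8.35 and 119.5 CPM; stem cell replicate 1 resembled the organoids and replicate 2 was several times higher. Dclk1, the usual tuft marker, was at 44.2 and 36.01 against 12.3 and 84.2 CPM (log2 fold change -0.27 ± 0.74 SE, adjusted p = 0.852); without stem cell replicate 2 it was called higher in organoids, and without replicate 1 lower. The summed tuft level was 985 and 1023 CPM in the organoids and 796 and 1821 CPM in the stem cells. A large part of it was Cd24a alone, at 731 and 786 CPM in the organoids and 629 and 738 CPM in the stem cells. In the M cell list, 3 of 10 tested members were lower in organoids and edgeR called 0 higher (2 at an unadjusted p under 0.05, 1 called by DESeq2), with a median log2 fold change of -0.48; the lower genes were the chemokines Ccl6 and Ccl9 and the receptor Sirpa, which phagocytes also express. Ccl6 was at 127 and 199 against 552 and 506 CPM (log2 fold change -1.70 ± 0.23 SE). Other fits ended calls without organoid replicate 1 for Cck, Nts and Sirpa, without organoid replicate 2 for Sirpa, without stem cell replicate 1 for Gcg and Sirpa, with all 13 libraries in the fit for Cck, Gcg, Ccl6, Ccl9 and Sirpa. Enteroendocrine genes called higher numbered 1 without organoid replicate 1 or with all 13 libraries in the fit. M cell genes called lower numbered 0 with all 13 libraries in the fit.

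Genes of niche signalling moved in small numbers. In the Notch pathway, 1 of 17 tested members was higher in organoids and 3 were lower, with a median log2 fold change of 0.18: the ligand Jag2 was higher at 47.7 and 37.4 against 9.12 and 11.3 CPM (log2 fold change 2.06 ± 0.24 SE, adjusted p = 0.00668). Atoh1, the ligand Dll4 and the feedback inhibitor Nrarp were lower, Nrarp at 55.8 and 70.7 against 132 and 131 CPM (log2 fold change -1.05 ± 0.16 SE, adjusted p = 0.0141). Among BMP targets and antagonists, 1 of 13 tested members was higher in organoids and 3 were lower, with a median log2 fold change of -0.63. The lower genes were Id1, Id3 and Id4, transcriptional inhibitors that are direct BMP targets. Id3 was at 13.4 and 15.2 against 68.7 and 91.2 CPM (log2 fold change -2.48 ± 0.21 SE, adjusted p = 0.00275). Id1 was at 30.5 and 30.4 against 67.3 and 77.2 CPM (log2 fold change -1.25 ± 0.16 SE, adjusted p = 0.00939). Id4 was at 0.297 and 1.33 against 14.8 and 8.97 CPM (log2 fold change -3.79 ± 0.73 SE). The ligand Bmp4 was the higher gene, at 5.20 and 1.93 against 0.0643 and 0.163 CPM (log2 fold change 4.85 ± 1.05 SE). Both organoid libraries were below both stem cell libraries for Id1, Id3 and Id4. Id2, of the same family, was at 80.5 and 35.4 against 36.3 and 31.4 CPM and was not called (log2 fold change 0.77 ± 0.37 SE, adjusted p = 0.255). For targets of YAP and TEAD, which respond to stretch and injury, 4 of 16 tested members were higher in organoids and 1 was lower, with a median log2 fold change of 0.65; Ajuba was at 22.96 and 22.2 against 5.65 and 3.97 CPM (log2 fold change 2.23 ± 0.31 SE). Arhgef17 was at 19.2 and 11.4 against 1.86 and 2.23 CPM (log2 fold change 2.89 ± 0.43 SE). Nuak2, the lower gene, was at 17.9 and 22.3 against 43.05 and 48.1 CPM (log2 fold change -1.18 ± 0.20 SE). Ccn1 and Ccn2 of this list were not found in the counts under those names, and Ankrd1 had no count. For genes of fetal and regenerating epithelium, 6 of 27 tested members were higher in organoids and edgeR called 0 lower (4 at an unadjusted p under 0.05, 1 called by DESeq2), with a median log2 fold change of 0.55. Sprr1a, a cornified envelope gene induced by injury, was at 9.88 and 10.2 against 0.0643 and 0.109 CPM; the stem cells had 3 counts in all, so the ratio was 114 with a 95% counting interval of 38.7 to 555 (adjusted p = 0.0036). Il1rn, the interleukin-1 receptor antagonist, was at 15.2 and 11.2 against 0.964 and 0.653 CPM (log2 fold change 4.03 ± 0.48 SE). Clu, clusterin, was at 13.2 and 57.3 against 2.63 and 3.81 CPM (log2 fold change 3.45 ± 0.71 SE). Ly6a, a much used marker of the regenerative state, was at 9.96 and 2.06 against 5.59 and 24.1 CPM and was not called (log2 fold change -1.33 ± 0.89 SE, adjusted p = 0.403). Some calls did not hold, without organoid replicate 1 for Bmp4 and Arhgef17, without organoid replicate 2 for Clu, without stem cell replicate 1 for Bmp4, without stem cell replicate 2 for Dll4, Bmp4 and Nuak2, with all 13 libraries in the fit for Nrarp and Bmp4, with RLE scaling or with TMM scaling that leaves out rRNA, mitochondrial and Paneth genes for Dll4. The counts of Nrarp and Ly6a are uncertain by the same measure of shared sequence. Notch pathway genes called lower numbered 5 without organoid replicate 2. BMP list genes called lower numbered 7 by DESeq2 and 5 without organoid replicate 2. YAP and TEAD targets called higher numbered 7 by DESeq2 and 2 without organoid replicate 1. Genes of the fetal list called higher numbered 12 by DESeq2 and 10 without organoid replicate 2.

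The clearest rise in organoids was in genes of glycolysis and of the response to low oxygen. Of 25 tested members, 21 were higher and edgeR called 0 lower (0 at an unadjusted p under 0.05, 0 called by DESeq2), with a median log2 fold change of 2.12, and all 25 had a positive fold change. The hypoxia-inducible factors bind the letters ACGTG in their target genes. Promoters of Bnip3 and Egln3 are shown because these genes gave the largest called fold changes of the list, each as the 250 bases before the RefSeq gene start (GRCm38.p6), 5′ to 3′ on the gene's strand, with matches to ACGTG on either strand in capitals: Bnip3 from chr7:138909507-138909756 on the minus strand, and Egln3 from chr12:54203875-54204124 on the minus strand.
Bnip3: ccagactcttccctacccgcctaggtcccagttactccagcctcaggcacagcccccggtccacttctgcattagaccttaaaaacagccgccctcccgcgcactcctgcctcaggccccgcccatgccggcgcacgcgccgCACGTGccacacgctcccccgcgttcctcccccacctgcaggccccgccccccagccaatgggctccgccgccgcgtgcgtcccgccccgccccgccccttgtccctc
Egln3: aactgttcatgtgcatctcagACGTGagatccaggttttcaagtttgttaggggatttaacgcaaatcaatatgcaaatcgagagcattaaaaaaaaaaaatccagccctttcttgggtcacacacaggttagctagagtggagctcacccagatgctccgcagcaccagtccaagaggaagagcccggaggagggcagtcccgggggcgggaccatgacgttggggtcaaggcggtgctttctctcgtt
In Bnip3 the capitals cover a pair of overlapping matches, 1 on each strand. Of 20 called members with a promoter window in the table, 13 held the core in some window, and 16.6% of all 32851 windows of this length did. A gene counted if any of its windows held the core, while the background counts single windows, so these shares are not alike. A match describes the letters only.

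Egln3, the prolyl hydroxylase induced by the factors it targets for degradation (chromosome 12, 54178981 to 54203860, minus strand), was at 431 and 143 CPM in the organoids and 3.47 and 3.15 CPM in the stem cells (log2 fold change 6.43 ± 0.60 SE, adjusted p = 0.0036). Bnip3, a mitophagy receptor, was at 183 and 80.01 CPM in the organoids and 2.70 and 2.88 CPM in the stem cells (log2 fold change 5.55 ± 0.46 SE, adjusted p = 0.00259). Ak4, a mitochondrial adenylate kinase outside the list and among the largest rises, was at 165 and 71.2 against 0.643 and 0.435 CPM (log2 fold change 7.78 ± 0.57 SE, adjusted p = 0.00183). Organoid replicate 1 was the highest library for each of these genes, replicate 2 lay below it, and the stem cells were at a few CPM. Glycolytic enzymes rose less: Pfkl, the liver phosphofructokinase, was at 425 and 317 against 84.9 and 85.5 CPM (log2 fold change 2.12 ± 0.18 SE, adjusted p = 0.00275). The lactate dehydrogenase Ldha was at 2444 and 1759 against 753 and 870.0 CPM (log2 fold change 1.37 ± 0.18 SE). The pyruvate kinase Pkm was at 2323 and 1564 against 353 and 457 CPM (log2 fold change 2.26 ± 0.23 SE). The growth factor Vegfa was at 328 and 177 against 58.98 and 55.5 CPM (log2 fold change 2.14 ± 0.29 SE). The lactate exporter Slc16a3 was at 176 and 100.1 against 1.61 and 8.21 CPM (log2 fold change 4.78 ± 0.68 SE). Summed over the list, levels were 21184 and 12079.5 CPM in the organoids and 4119.7 and 4524 CPM in the stem cells, so the organoid replicates differed from each other by more than the stem cell replicates did. For nuclear-encoded genes of the mitochondrial respiratory chain, 4 of 40 tested members were lower in organoids and edgeR called 0 higher (0 at an unadjusted p under 0.05, 0 called by DESeq2), with a median log2 fold change of -0.34, and 3 of 40 fold changes positive. Cox5b, a subunit of cytochrome oxidase, was at 105 and 132 against 215 and 232 CPM (log2 fold change -0.92 ± 0.16 SE). In alternative fits calls fell away without stem cell replicate 2 for Cox5b, with all 13 libraries in the fit for Ldha and Cox5b. The counts of Bnip3 and Pkm are uncertain by the same measure of shared sequence. Respiratory chain genes called lower numbered 12 by DESeq2, 0 without stem cell replicate 2 or with all 13 libraries in the fit and 2 without stem cell replicate 1.

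Cholesterol synthesis was the other pathway that rose nearly as a whole. Of 25 members, 21 were higher in organoids and edgeR called 0 lower (0 at an unadjusted p under 0.05, 0 called by DESeq2), with a median of 1.43. Sqle, squalene epoxidase, was at 384 and 337 CPM in the organoids and 103 and 133 CPM in the stem cells (log2 fold change 1.61 ± 0.18 SE, adjusted p = 0.00586). Msmo1 was at 353 and 293 against 65.3 and 73.95 CPM (log2 fold change 2.21 ± 0.16 SE, adjusted p = 0.00184). Lss, lanosterol synthase, was at 191 and 179 against 42.1 and 52.4 CPM (log2 fold change 1.97 ± 0.16 SE, adjusted p = 0.00223). The replicates of each group lay close together, unlike the hypoxia genes. Scd1, the stearoyl-CoA desaturase that makes monounsaturated fatty acids, is in no list and was among the largest rises, at 241 and 326 against 4.05 and 1.20 CPM (log2 fold change 6.79 ± 0.51 SE, adjusted p = 0.00187). Of fatty acid oxidation genes and PPAR targets, 3 of 27 tested members were higher in organoids and 2 were lower, with a median log2 fold change of 0.31. The carnitine transferase Cpt1a was lower at 129 and 101 against 288 and 274 CPM (log2 fold change -1.28 ± 0.16 SE). The receptor Ppard was lower at 77.6 and 62.8 against 215 and 176 CPM (log2 fold change -1.48 ± 0.17 SE). Not all calls held, with losses with all 13 libraries in the fit for Ppard. Cholesterol genes called higher numbered 13 with all 13 libraries in the fit. Genes of fat oxidation called higher numbered 5 by DESeq2 and 0 with all 13 libraries in the fit.

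The metallothioneins Mt1 and Mt2, small proteins that bind zinc and copper, were far higher in organoids. The Mt2 promoter is shown as the 250 bases before its start (chr8:94172368-94172617, GRCm38.p6, plus strand). The single match to TGCGCNC, a form of the core bound by the zinc sensor MTF1, is in capitals. Other forms of the core were not searched.
Mt2: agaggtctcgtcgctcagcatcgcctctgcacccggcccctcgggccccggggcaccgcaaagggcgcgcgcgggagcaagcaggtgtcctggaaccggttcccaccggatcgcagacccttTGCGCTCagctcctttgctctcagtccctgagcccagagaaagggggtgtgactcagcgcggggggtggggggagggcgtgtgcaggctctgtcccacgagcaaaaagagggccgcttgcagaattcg
On either strand the letters TGCGCNC were in 12.5% of all windows of this length and in those of 2 of 5 members called higher, Mt2 and Slc30a10. As above, genes are set beside single windows here. Mt2 (chromosome 8, 94172664 to 94173568, plus strand) was at 745 and 1499 CPM in the organoids and 15.7 and 20.01 CPM in the stem cells (log2 fold change 5.97 ± 0.40 SE, adjusted p = 0.00151). Mt1 was at 948 and 1763 CPM in the organoids and 97.5 and 102 CPM in the stem cells (log2 fold change 3.77 ± 0.31 SE, adjusted p = 0.00259). Organoid replicate 2 was the highest library for both. The manganese exporter Slc30a10 was at 139 and 29.7 against 2.76 and 0.761 CPM, with replicate 1 the higher (log2 fold change 5.60 ± 0.92 SE, adjusted p = 0.0206). Slc30a1, the zinc exporter of the cell surface, was at 40.2 and 45.4 against 19.02 and 22.9 CPM (log2 fold change 1.03 ± 0.20 SE, adjusted p = 0.0338). Slc30a2 was lower at 13.9 and 25.3 against 87.4 and 54.2 CPM (log2 fold change -1.84 ± 0.35 SE). Mt4 had counts in the organoids only, at least 40.8-fold higher against 3 counts over the stem cell group (adjusted p = 0.0312). Mt3, also scarce, was at 0.446 and 0.413 against 1.09 and 1.90 CPM and was not called (log2 fold change -1.79 ± 0.91 SE, adjusted p = 0.279). In the list as a whole, 5 of 10 tested members were higher in organoids and 1 was lower, with a median log2 fold change of 0.74. Calls were lost without organoid replicate 1 for Slc30a2 and Mt4, without organoid replicate 2 for Slc30a1 and Mt4, without either stem cell replicate for Slc30a1, with all 13 libraries in the fit for Slc30a1 and Slc30a2. The count of Mt2 is uncertain by the same measure of shared sequence. Members of the metal list called higher numbered 3 without organoid replicate 2.

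Genes of drug and toxin handling filled much of the top of the list of rises. Cyp2c66, Cyp2c29, Cyp2b10 and Cyp3a11 are cytochrome P450 enzymes. Cyp2c66 was at 38.6 and 56.2 CPM in the organoids with no count in the stem cells, at least 560.2-fold higher (adjusted p = 0.00151). Cyp2c29 was at 5.50 and 42.2 CPM with no count in the stem cells, at least 319-fold higher (adjusted p = 0.0292). Cyp2b10 was at 9.14 and 42.3 against 0.386 and 0 CPM (log2 fold change 7.11 ± 1.20 SE, adjusted p = 0.0218). Cyp3a11 was at 5.65 and 27.8 against 0.386 and 0 CPM (log2 fold change 6.48 ± 1.26 SE, adjusted p = 0.033). For Cyp2c29, Cyp2b10 and Cyp3a11 organoid replicate 2 was several times above replicate 1. In the list of oxidative stress and detoxification genes, 7 of 25 tested members were higher in organoids and 1 was lower, with a median log2 fold change of 0.79. Both Gstm1 and Gsta1 are glutathione transferases. Gstm1 was at 185 and 137 against 38.6 and 43.7 CPM (log2 fold change 1.97 ± 0.19 SE, adjusted p = 0.0036). Gsta1 was at 26.1 and 33.6 against 0 and 0.489 CPM (log2 fold change 6.81 ± 0.79 SE, adjusted p = 0.00662). Aldh1a1, which makes retinoic acid, was at 61.4 and 116 against 8.35 and 12.3 CPM (log2 fold change 3.10 ± 0.36 SE). Gpx2, the gut glutathione peroxidase, was the lower member, at 243 and 378 against 628 and 796 CPM (log2 fold change -1.20 ± 0.24 SE). For targets of the aryl hydrocarbon receptor, a sensor of plant and microbial compounds, 1 of 5 tested members was higher in organoids. EdgeR called 0 lower (0 at an unadjusted p under 0.05, 0 called by DESeq2), and the median log2 fold change was 0.56. The higher gene was Nfe2l2, at 287 and 245 against 147 and 153 CPM (log2 fold change 0.83 ± 0.14 SE). Cyp1a1, Ahrr and Cyp1b1 of this list had too few counts to test. Cyp1a1 had 7 and 92 counts in the organoids, Ahrr 6 and 2, and Cyp1b1 0 and 7. Each had 0 in both stem cell libraries. Other fits ended calls without organoid replicate 2 for Cyp2b10 and Cyp3a11, without either stem cell replicate for Nfe2l2, with all 13 libraries in the fit for Gpx2 and Nfe2l2. The counts of Cyp2c66, Gstm1 and Gsta1 are uncertain by the same measure of shared sequence. Targets of the aryl hydrocarbon receptor called higher numbered 3 by DESeq2, 0 without either stem cell replicate or with all 13 libraries in the fit and 2 without either organoid replicate.

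Other large rises were Upk3b, Atg9b, Stc2 and Ak4. Upk3b, a uroplakin, was at 25.7 and 8.63 CPM with no count in the stem cells, at least 171-fold higher (adjusted p = 0.00964). Atg9b, a lipid scramblase of autophagy, was at 31.1 and 13.8 against 0.257 and 0 CPM (log2 fold change 7.46 ± 0.93 SE, adjusted p = 0.00836). Stc2, stanniocalcin 2, was at 97.6 and 54.8 against 1.35 and 0.272 CPM (log2 fold change 6.59 ± 0.62 SE, adjusted p = 0.0036) and belongs to the list of the amino acid response, in which 4 of 23 tested members were higher in organoids and edgeR called 0 lower (0 at an unadjusted p under 0.05, 0 called by DESeq2), with a median log2 fold change of 0.51. Phgdh and Psat1 are enzymes of serine synthesis in this list. Phgdh was at 164 and 146 against 53.4 and 67.6 CPM (log2 fold change 1.36 ± 0.16 SE, adjusted p = 0.00726). Psat1 was at 183 and 144 against 56.5 and 37.95 CPM (log2 fold change 1.79 ± 0.23 SE, adjusted p = 0.00892). Among p53 targets, 6 of 22 tested members were higher in organoids and 2 were lower, with a median log2 fold change of 0.49; Phlda3 was at 25.3 and 13.1 against 2.51 and 2.39 CPM (log2 fold change 2.96 ± 0.44 SE). The cell cycle inhibitor Cdkn1a was at 294 and 139 against 58.1 and 76.9 CPM (log2 fold change 1.68 ± 0.35 SE), with organoid replicate 1 above replicate 2. The lower members were Btg2 and Plk3, which are also early response genes. Btg2 was at 78.2 and 109.7 against 352 and 296 CPM (log2 fold change -1.78 ± 0.20 SE). Plk3 was at 8.77 and 4.50 against 37.5 and 33.4 CPM (log2 fold change -2.43 ± 0.36 SE). Some calls did not hold, with all 13 libraries in the fit for Phgdh and Btg2. The count of Phgdh is uncertain by the same measure of shared sequence. Amino acid response genes called higher numbered 9 by DESeq2, 2 with all 13 libraries in the fit and 8 without organoid replicate 2 or stem cell replicate 1. p53 targets called higher numbered 3 without organoid replicate 1.

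Unfolded protein response genes went the other way. All 24 tested members had a negative fold change, with a median of -0.56; 9 were called lower and edgeR called 0 higher (0 at an unadjusted p under 0.05, 0 called by DESeq2). Ppp1r15a, which restarts translation after stress, was at 5.94 and 6.42 CPM in the organoids and 86.3 and 55.2 CPM in the stem cells (log2 fold change -3.51 ± 0.28 SE, adjusted p = 0.00223). Ern2, the stress sensor of goblet cells, was at 33.3 and 49.3 against 123 and 124 CPM (log2 fold change -1.58 ± 0.21 SE, adjusted p = 0.00939). Syvn1, a ubiquitin ligase of the endoplasmic reticulum, was at 45.4 and 49.04 against 93.2 and 107 CPM (log2 fold change -1.08 ± 0.15 SE, adjusted p = 0.0108). The cochaperone Dnajb9 was at 27.3 and 22.6 against 59.6 and 61.6 CPM (log2 fold change -1.28 ± 0.18 SE, adjusted p = 0.012). Both organoid libraries were below both stem cell libraries for these genes. The goblet and Paneth lists, whose cells make much secreted protein, were lower in the same libraries, with the summed levels given above; their part in this result was not tested. In alternative fits calls fell away with all 13 libraries in the fit for Ern2 and Dnajb9. Unfolded protein response genes called lower numbered 15 by DESeq2 and 4 with all 13 libraries in the fit.

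**Figure D3:**
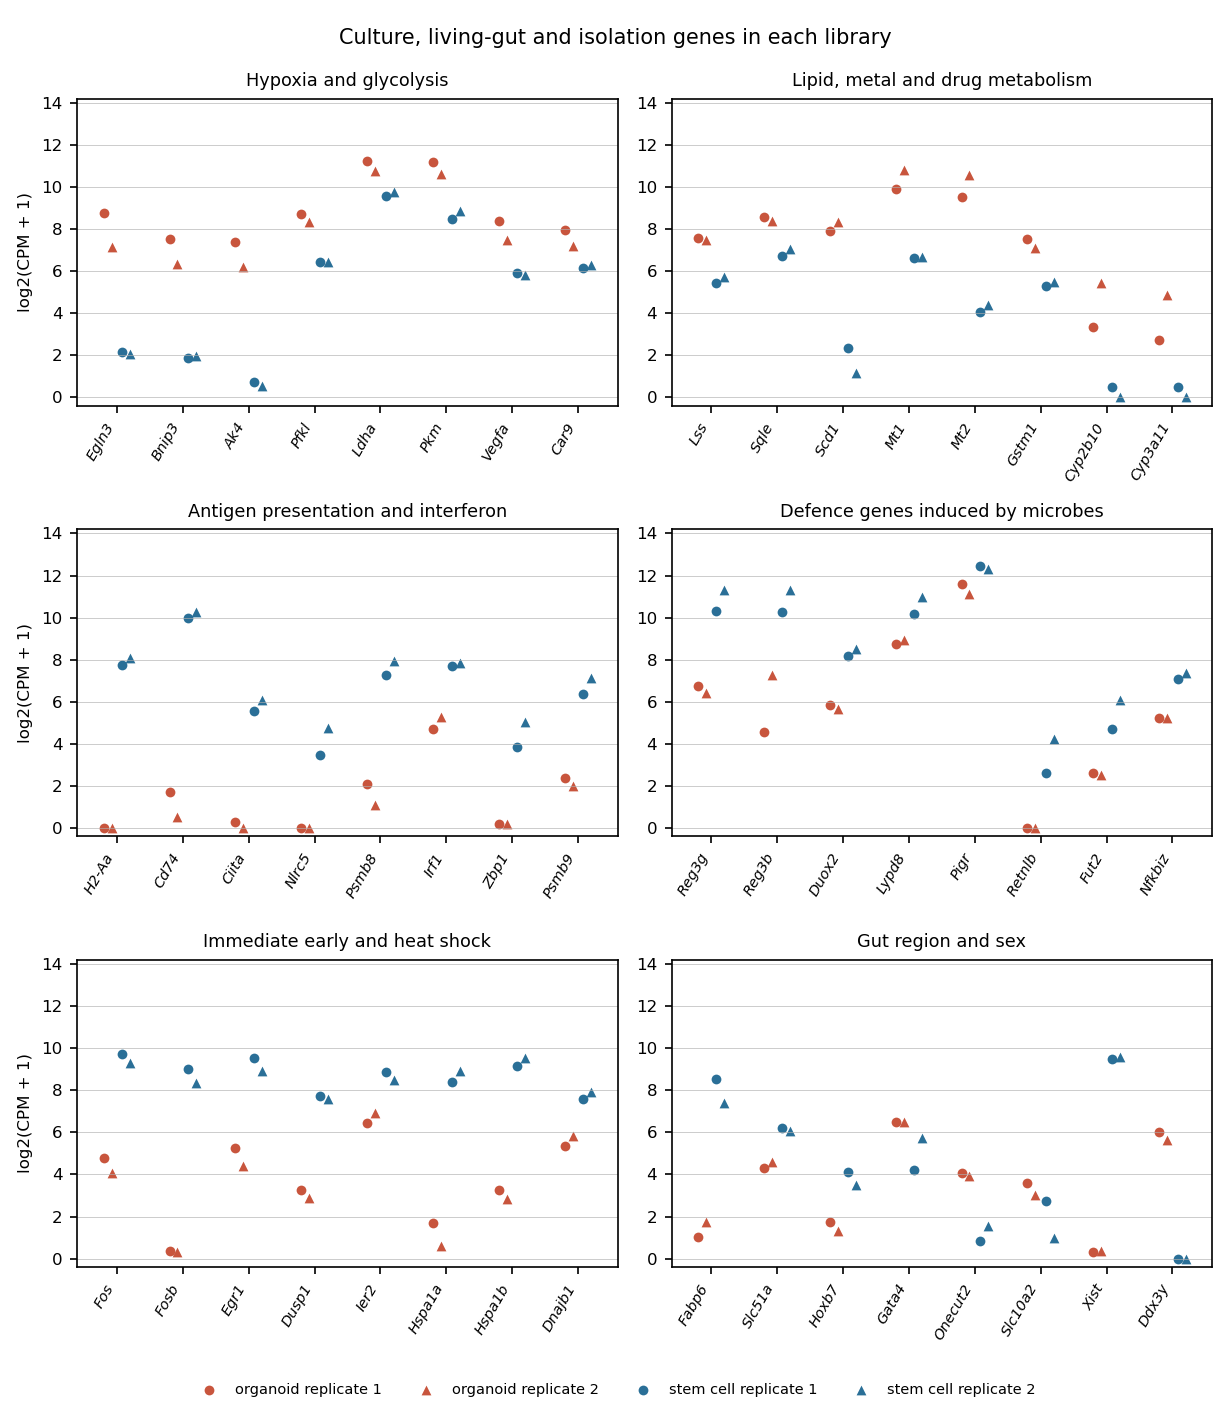
Level of selected genes, log2(CPM + 1), in each of the 4 libraries (red organoids, blue stem cells, circle replicate 1, triangle replicate 2), in 6 panels. Hypoxia, lipid, metal and drug metabolism genes are higher in organoids, antigen presentation, microbe-induced, immediate early and heat shock genes are lower, and Xist and Ddx3y separate the groups.

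Antigen presentation by MHC class II was nearly absent from the organoids and strong in the sorted stem cells. Epithelial cells make these molecules when interferon gamma from lymphocytes induces the master regulator CIITA. CIITA acts with factors that bind an X box and a Y box before each class II gene. Among lower members of the list with a promoter window, only H2-Aa and H2-Eb1 held the Y box letters CTGATTGG. Their promoters are shown with these letters in capitals, as the 250 bases before each start (GRCm38.p6, chr17:34287824-34288073 on the minus strand and chr17:34305617-34305866 on the plus strand).
H2-Aa: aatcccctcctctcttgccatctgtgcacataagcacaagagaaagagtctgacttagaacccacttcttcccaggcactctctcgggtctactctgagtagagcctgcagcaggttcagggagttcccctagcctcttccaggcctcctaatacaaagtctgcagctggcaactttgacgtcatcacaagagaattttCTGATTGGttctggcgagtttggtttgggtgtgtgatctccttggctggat
H2-Eb1: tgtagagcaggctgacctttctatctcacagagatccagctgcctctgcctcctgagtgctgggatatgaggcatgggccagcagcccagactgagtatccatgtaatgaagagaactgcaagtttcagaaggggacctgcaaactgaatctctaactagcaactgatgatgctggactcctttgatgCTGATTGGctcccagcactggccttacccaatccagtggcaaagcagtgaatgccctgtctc
The first capital lies 51 and 62 bases before the start. On either strand, 3.83% of all windows of this length held these letters, as did 2 of 5 lower members of the list with a window in the table, which include the class I gene H2-Q2. Here too, genes are set beside single windows.

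Of 9 tested members of the class II list, 8 were lower in organoids and edgeR called 0 higher (0 at an unadjusted p under 0.05, 0 called by DESeq2), with a median log2 fold change of -6.91. The list also holds H2-Q1 and H2-Q2, which are class I genes. Without them, a choice made after the values were seen, 7 of 7 tested members were lower, with a median of -9.22. H2-Q1 was not called, and H2-Q2 was at 34.1 and 26.7 against 60.1 and 71.8 CPM (log2 fold change -1.12 ± 0.20 SE, adjusted p = 0.0252). H2-Aa, the alpha chain of I-A (chromosome 17, 34282744 to 34287823, minus strand), had no count in either organoid library and 210.2 and 267 CPM in the stem cells, so it was at least 2834-fold lower against 3 counts over the organoid group (adjusted p = 0.000412). H2-Eb1, the beta chain of I-E, was at 0.520 and 0.275 CPM in the organoids and 295 and 348 CPM in the stem cells (log2 fold change -9.73 ± 0.28 SE, adjusted p = 0.000112). Cd74, the invariant chain that guides class II molecules, was at 2.23 and 0.413 CPM in the organoids and 996 and 1229 CPM in the stem cells (log2 fold change -9.85 ± 0.68 SE, adjusted p = 0.00157). Ciita, the regulator itself, had 3 counts in all in the organoids and 46.1 and 66.1 CPM in the stem cells, a stem cell to organoid ratio of 669 with a counting interval of 229 to 3247 (adjusted p = 0.00169). The stem cell replicates were close to each other for these genes, and no organoid library came near them. Class II is also made by macrophages, dendritic cells and B cells, so their markers are given beside it. Ptprc, which marks all leukocytes, was at 0.594 and 1.10 against 3.53 and 10.5 CPM, Csf1r, of macrophages, at 0 and 0 against 0.900 and 2.50 CPM, and Ms4a1, of B cells, at 0.297 and 0.918 against 1.03 and 0.598 CPM. EdgeR called none of the 3, while DESeq2 called Ptprc and Csf1r lower (adjusted p = 0.00268 and 0.00562). The complement genes of macrophages were scarce and higher in the stem cells: C1qa had 5 and 0 counts in the organoids and 28 and 73 in the stem cells, and C1qb 0 and 0 counts in the organoids and 17 and 44 in the stem cells. Itgax, of dendritic cells, had 0 and 0 counts in the organoids and 15 and 33 in the stem cells. Mrc1, of macrophages, went the other way, with 61 and 107 counts in the organoids and 3 and 25 in the stem cells. It was not called (adjusted p = 0.148 by edgeR and 0.052 by DESeq2). Tyrobp had 0 and 0 counts in the organoids and 1 and 3 in the stem cells, and Fcer1g 0 and 4 against 2 and 0. Of 11 tested myeloid markers, edgeR called 3 lower, with values given further on, and DESeq2 7. The summed myeloid list was 88.3 and 124 CPM in the organoids and 246 and 228 CPM in the stem cells, of which Kit, also made by other cells, was a large part. Without Kit the sum was 26.8 and 21.1 against 112 and 108 CPM. S100a8, S100a9, Cx3cr1 and Cpa3 had no count in any of the 4 libraries. How much of the class II RNA came from such cells was not tested. Not all calls held, with losses without stem cell replicate 2 or with all 13 libraries in the fit for H2-Q2. The counts of H2-Q1 and H2-Q2 are uncertain by the same measure of shared sequence.

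Interferon-induced genes followed the same direction. Of 39 members, 21 were lower and edgeR called 0 higher (0 at an unadjusted p under 0.05, 0 called by DESeq2), with a median of -3.12. Nlrc5, the class I counterpart of CIITA, had no count in organoids and 9.89 and 26.05 CPM in the stem cells, at least 219-fold lower (adjusted p = 0.00765). Subunits of the immunoproteasome, which makes peptides for class I, were lower: Psmb8 was at 3.27 and 1.15 against 153 and 241 CPM (log2 fold change -6.57 ± 0.48 SE, adjusted p = 0.00183). Psmb9 was at 4.16 and 3.03 against 81.5 and 141 CPM (log2 fold change -4.97 ± 0.35 SE, adjusted p = 0.00157). Psmb10 was at 44.6 and 50.8 against 228 and 278 CPM (log2 fold change -2.41 ± 0.16 SE, adjusted p = 0.00151). The transcription factor Irf1 was at 25.1 and 37.5 against 207 and 228 CPM (log2 fold change -2.79 ± 0.21 SE, adjusted p = 0.00204). Zbp1, a sensor of nucleic acids, was at 0.149 and 0.138 against 13.6 and 32.2 CPM (log2 fold change -7.26 ± 0.67 SE). Oas3, an antiviral enzyme, was at 0.297 and 0 against 3.02 and 31.6 CPM (log2 fold change -7.09 ± 1.58 SE). Stem cell replicate 2 was above replicate 1 for each gene named here, with summed levels of 845 and 730.2 CPM in the organoids and 2096 and 3767 CPM in the stem cells. Calls were lost without organoid replicate 1 or organoid replicate 2 or stem cell replicate 2 for Oas3. Interferon-induced genes called lower numbered 32 without stem cell replicate 1.

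Genes that gut microbes induce in the epithelium were lower in organoids in 11 of 24 tested members and edgeR called 0 higher (2 at an unadjusted p under 0.05, 1 called by DESeq2), with a median of -1.28. Reg3g, a lectin that kills Gram-positive bacteria, was at 106 and 83.3 CPM in the organoids and 1275 and 2518 CPM in the stem cells (log2 fold change -4.33 ± 0.36 SE, adjusted p = 0.00259). Reg3b, its relative, was at 22.7 and 153 CPM in the organoids and 1248 and 2501 CPM in the stem cells, with organoid replicate 2 above replicate 1 (log2 fold change -4.41 ± 0.89 SE, adjusted p = 0.0366). Duox2, an oxidase that makes hydrogen peroxide at the surface, was at 56.8 and 49.9 against 289 and 363 CPM (log2 fold change -2.61 ± 0.17 SE, adjusted p = 0.00151). Pigr, which carries IgA into the lumen, was at 3122 and 2223 against 5588 and 5087 CPM (log2 fold change -0.998 ± 0.17 SE, adjusted p = 0.0218). Retnlb, a goblet cell defence protein, had no count in organoids and 5.20 and 17.998 CPM in the stem cells, at least 143-fold lower (adjusted p = 0.015). Nfkbiz, an induced partner of NF-kappa-B, was at 36.1 and 36.8 against 134 and 163 CPM (log2 fold change -2.02 ± 0.15 SE). Zg16 and Ang4 in this list are goblet and Paneth products described above. The gasdermins Gsdmc2 and Gsdmc4, in no list, were among the largest falls. Gsdmc2 was at 0 and 0.963 against 89.7 and 211 CPM (log2 fold change -8.01 ± 0.81 SE). Gsdmc4 was at 0.817 and 2.84 against 137 and 343 CPM (log2 fold change -6.92 ± 0.66 SE). Other fits ended calls with all 13 libraries in the fit for Duox2, Pigr and Ang4. The counts of Gsdmc2 and Gsdmc4 are uncertain by the same measure of shared sequence. Microbe-induced genes called lower numbered 7 with all 13 libraries in the fit.

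Bile acid and region genes did not point in a single direction. Fabp6, the ileal bile acid binding protein (chromosome 11, 43596049 to 43601540, minus strand), was at 1.04 and 2.34 CPM in the organoids and 372 and 166 CPM in the stem cells (log2 fold change -7.23 ± 0.55 SE, adjusted p = 0.00201). Slc51a, a subunit of the bile acid exporter, was lower at 18.6 and 23.4 against 73.9 and 65.1 CPM (log2 fold change -1.72 ± 0.19 SE, adjusted p = 0.00605). The uptake carrier Slc10a2 was at 11.1 and 7.20 against 5.59 and 0.979 CPM (log2 fold change 1.48 ± 0.79 SE, adjusted p = 0.297). Fgf15, the ileal hormone, was at 7.80 and 2.57 against 1.54 and 1.63 CPM (log2 fold change 1.70 ± 0.71 SE, adjusted p = 0.199); neither was called. In the bile acid list, 3 of 12 tested members were higher in organoids and 2 were lower, with a median log2 fold change of 0.93; the higher genes were Cyp3a13, Abcc2 and Cyp3a11, Abcc2 at 268 and 154 against 17.7 and 31.6 CPM (log2 fold change 3.09 ± 0.37 SE). Of ileum-enriched genes, 4 of 25 tested members were higher in organoids and 3 were lower, with a median log2 fold change of -0.54. Of duodenum-enriched genes, 11 of 25 tested members were higher in organoids and 2 were lower, with a median log2 fold change of 1.86. The latter include Apoa4, Mt1, Cybrd1 and Cck, which other lists above also hold. Onecut2, a factor of the proximal gut, was at 15.9 and 14.3 against 0.771 and 1.90 CPM (log2 fold change 3.48 ± 0.52 SE). Gata4, absent from the normal distal ileum, was at 88.2 and 88.4 against 17.5 and 51.4 CPM (log2 fold change 1.35 ± 0.45 SE, adjusted p = 0.126). Hoxb7, a gene of the posterior body axis, was at 2.38 and 1.51 against 16.6 and 10.3 CPM (log2 fold change -2.80 ± 0.47 SE). Hoxb9 was at 8.54 and 1.93 against 69.1 and 21.97 CPM (log2 fold change -3.16 ± 0.80 SE, adjusted p = 0.0677). Gata4 was present in all 4 libraries and lowest in stem cell replicate 1, which was also the highest in Hoxb9. Both ileal labels therefore rest on the sample annotation, and a difference in gut region between the groups cannot be told apart from culture. Some calls did not hold, without organoid replicate 1 for Cck, without organoid replicate 2 for Cyp3a11, with all 13 libraries in the fit for Slc51a, Cybrd1, Cck and Onecut2. The counts of Fgf15 and Apoa4 are uncertain by the same measure of shared sequence. Ileum-enriched genes called higher numbered 2 without organoid replicate 1. Ileum-enriched genes called lower numbered 6 without organoid replicate 1 or by DESeq2 and 7 without stem cell replicate 2.

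Clock and steroid genes were also unequal. Of 19 tested circadian genes, 6 were higher and 3 lower, with a median of 0.98. Arntl, which encodes the clock activator BMAL1, was lower at 28.01 and 28.4 against 60.9 and 55.4 CPM (log2 fold change -1.04 ± 0.17 SE, adjusted p = 0.0183). Tef and Per3, which that activator drives, were higher. Tef was at 50.6 and 45.5 against 9.12 and 10.4 CPM (log2 fold change 2.29 ± 0.21 SE, adjusted p = 0.00356). Per3 was at 33.9 and 22.4 against 7.32 and 8.97 CPM (log2 fold change 1.78 ± 0.30 SE, adjusted p = 0.0222). The hours at which cells were taken are not given in the sources used here. Of glucocorticoid-induced genes, 1 of 12 tested members was higher in organoids and 5 were lower, with a median log2 fold change of -0.79. Fkbp5, a cochaperone of the receptor, was lower at 16.9 and 15.8 against 55.3 and 46.9 CPM (log2 fold change -1.64 ± 0.19 SE, adjusted p = 0.00684). Hsd11b2, which inactivates glucocorticoids, was lower at 9.44 and 9.63 against 100.5 and 50.2 CPM (log2 fold change -2.98 ± 0.35 SE). Dusp1, which is also an immediate early gene, was the member with the smallest adjusted p, and Mt2 was the higher member. In alternative fits calls fell away without organoid replicate 1 for Per3, without stem cell replicate 1 or with all 13 libraries in the fit for Arntl. The count of Mt2 is uncertain by the same measure of shared sequence. Clock genes called higher numbered 2 without organoid replicate 1. Clock genes called lower numbered 0 without stem cell replicate 1 or with all 13 libraries in the fit.

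Immediate early genes, which switch on within minutes of a stimulus and are known to rise while tissue is dissociated, were lower in organoids. Of 35 tested members, 20 were lower and edgeR called 0 higher (3 at an unadjusted p under 0.05, 3 called by DESeq2), with a median of -1.69. Fosb (chromosome 7, 19302696 to 19310051, minus strand), an AP-1 subunit, was at 0.297 and 0.229 CPM in the organoids and 508 and 322 CPM in the stem cells (log2 fold change -10.62 ± 0.39 SE, adjusted p = 0.00035). Fos was at 26.4 and 15.7 CPM in the organoids and 836 and 626 CPM in the stem cells (log2 fold change -5.12 ± 0.32 SE, adjusted p = 0.00124). Egr1, a zinc finger factor, was at 37.4 and 20.1 against 743 and 488 CPM (log2 fold change -4.43 ± 0.37 SE, adjusted p = 0.00275). Dusp1, a phosphatase that shuts off MAP kinases, was at 8.62 and 6.38 against 210.4 and 189 CPM (log2 fold change -4.75 ± 0.20 SE, adjusted p = 0.000412). Atf3 was at 18.4 and 11.7 against 408 and 273 CPM (log2 fold change -4.51 ± 0.31 SE). Zfp36, which destabilises cytokine mRNA, was at 54.1 and 52.3 against 338 and 291 CPM (log2 fold change -2.56 ± 0.15 SE). Stem cell replicate 1 was above replicate 2 for Fosb, Fos, Egr1 and Atf3, and both were many times above the organoids. Ier2 was the least changed of those plotted, at 87.01 and 121 against 471 and 354 CPM (log2 fold change -1.99 ± 0.23 SE). The labels describe flow cytometry for the stem cells and direct collection for the organoids, and a warm collagenase step for samples of this kind; whether the organoids went through that step is unclear. The handling and the state of the cells in the gut cannot be told apart.

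Of 20 tested heat shock genes, 4 were lower in organoids and edgeR called 0 higher (0 at an unadjusted p under 0.05, 0 called by DESeq2), with a median of -0.21. The lower genes were led by the inducible HSP70 pair: Hspa1a was at 2.23 and 0.505 CPM in the organoids and 341 and 489.5 CPM in the stem cells (log2 fold change -8.38 ± 0.59 SE, adjusted p = 0.00157). Hspa1b was at 8.47 and 6.10 CPM in the organoids and 566 and 744 CPM in the stem cells (log2 fold change -6.50 ± 0.27 SE, adjusted p = 0.000412). Dnajb1, the HSP40 partner, was at 39.9 and 55.5 against 192 and 242 CPM (log2 fold change -2.18 ± 0.21 SE, adjusted p = 0.00366). Hspe1, a mitochondrial chaperonin, was at 112 and 123 against 198 and 232 CPM (log2 fold change -0.87 ± 0.15 SE, adjusted p = 0.0211). The other 16 members were not called. Not all calls held, with losses without stem cell replicate 2 or with all 13 libraries in the fit for Hspe1. The counts of Hspa1a, Hspa1b and Hspe1 are uncertain by the same measure of shared sequence.

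**Figure D4:**
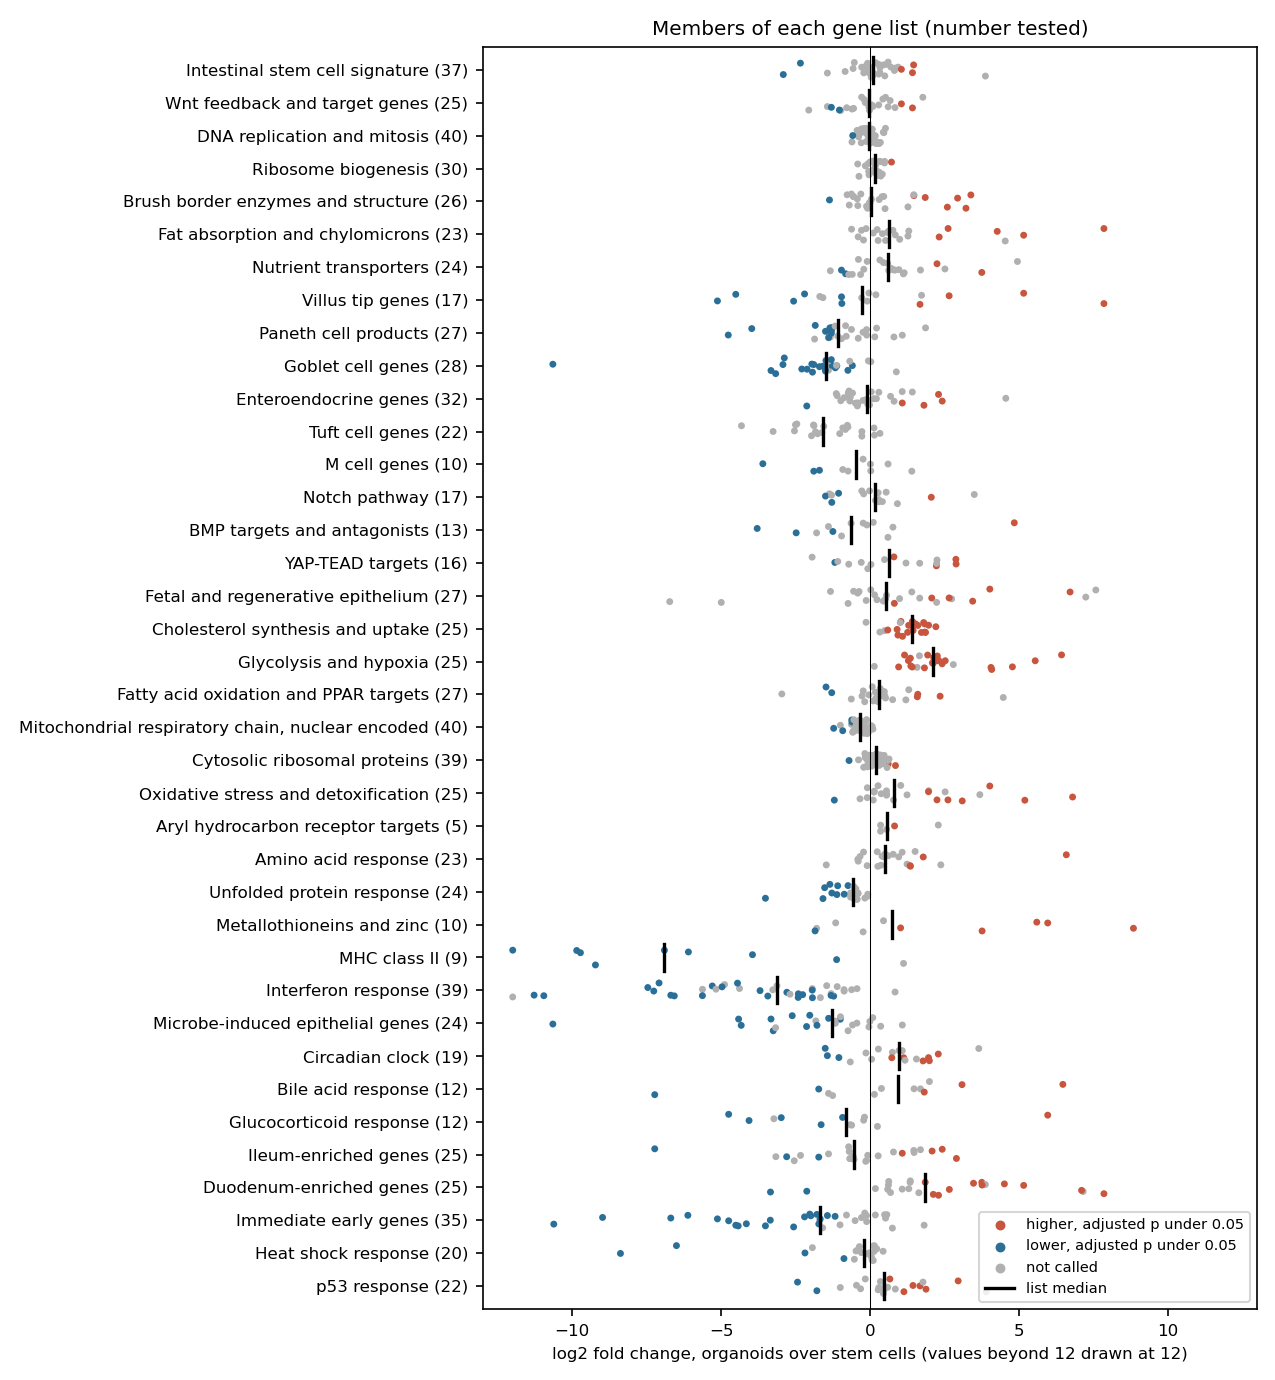
Log2 fold change of every tested member of 38 gene lists, organoids over stem cells (x axis), with members called higher in red, called lower in blue and not called in grey, and the median of each list as a black bar; values beyond 12 are drawn at 12. Glycolysis and hypoxia (median 2.12), duodenum-enriched genes (1.86) and cholesterol synthesis (1.43) lie furthest to the right, and the MHC class II list, which holds 2 class I genes, (-6.91) and the interferon response (-3.12) furthest to the left.

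Epithelial genes were high in both groups. Epcam, the pan-epithelial adhesion molecule, was at 1758 and 1634 CPM in the organoids and 2121 and 2130.0 CPM in the stem cells (log2 fold change -0.33 ± 0.11 SE, adjusted p = 0.119). Cdh1, E-cadherin, was at 1265 and 1252 against 1281 and 1298 CPM (log2 fold change -0.04 ± 0.11 SE, adjusted p = 0.871). Markers of other cell types were scarce. Of 22 T cell and lymphocyte markers 3 had enough counts to test, edgeR called 0 lower (1 at an unadjusted p under 0.05, 1 called by DESeq2), with summed levels of 2.60 and 4.13 CPM in the organoids and 14.4 and 13.4 CPM in the stem cells. In stem cell replicate 1 Ccl5 had 23 counts, Cd7 15, Gzma 13, Gzmb 12, Cd3g 10 and Cd8a 8, and each had 0 in the other libraries. Cd3e had 4 counts in organoid replicate 2 and 1 in stem cell replicate 1. Of 12 B and plasma cell markers 4 were tested and 1 was higher in organoids, Sdc1, a proteoglycan that epithelium also makes, at 514 and 324 against 160.0 and 164 CPM (log2 fold change 1.37 ± 0.23 SE, adjusted p = 0.0217). Of 18 myeloid markers 11 were tested and 3 were lower: Cd14 at 10.6 and 8.17 against 37.5 and 38.2 CPM (log2 fold change -2.02 ± 0.24 SE, adjusted p = 0.00668). Itgam was at 9.29 and 5.73 against 57.1 and 39.1 CPM (log2 fold change -2.69 ± 0.33 SE). Lyz2 was at 0.446 and 0.367 against 7.52 and 14.6 CPM (log2 fold change -4.76 ± 0.60 SE). The median of the tested myeloid genes was -4.08, or -3.22 with genes at 0 in a group set at their bound. Of 22 stromal, endothelial and muscle markers, 10 had no count in any of the 4 libraries, 5 were tested and edgeR called 0 higher (1 at an unadjusted p under 0.05, 1 called by DESeq2). Of 8 red cell markers, 7 had no count. Calls were lost with all 13 libraries in the fit for Itgam. The counts of Itgam and Lyz2 are uncertain by the same measure of shared sequence. Myeloid markers called lower numbered 7 by DESeq2 and 5 without stem cell replicate 1.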

How the data were processed

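Bulk RNA-seq of polyA RNA from 2 WT organoid and 2 WT ileal stem cell libraries was used, of 13 in the series. The kit did not mark strand, per the labels. The authors deposited whole-number read counts per gene, 1 table of 24054 genes for each library. Per the submitters' processing notes, the tools were STAR and DESeq2 1.22.2 and the build was mm10. Which gene annotation was counted is not given in the sources used here. The strand columns were not used, because reads of a gene and its antisense partner cannot be told apart with this kit.

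The analysis of counts from both strands together used edgeR 4.0.16 and limma 3.58.1 under R 4.3.3. Genes were kept with filterByExpr (minimum count 10), libraries were scaled by TMM, and the 2 groups were compared with the quasi-likelihood test on these 4 libraries alone (2 residual degrees of freedom, biological coefficient of variation 0.264). P-values were adjusted by Benjamini-Hochberg over all 12978 genes tested. SE is the size of the log2 fold change divided by the square root of F. A gene without a count in a group got a fold against 3 counts over that group, and 1 to 3 counts got a ratio with an exact 95% interval, which cover counting error only. DESeq2 1.42.0 and the other alternatives are in the closing section. The fit was tested on simulated data. Plots and annotation used Python 3.11.15 and matplotlib. Of the gene symbols, 22753 (94.6%) matched GENCODE vM21 (GRCm38), which gave coordinates. Promoters are from RefSeq (GRCm38.p6, 32851 windows).

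Replicates were not copies of each other: their counts gave a chi-square per degree of freedom of 46.1 for the organoids and 32.8 for the stem cells. The samples and the 43 gene lists (984 genes, 961 in the tables) were chosen with earlier results of these data known, so lists are described by counts and medians and not tested. The genes named were Lgr5, Olfm4, Ascl2, Axin2, Apc, Mki67, Atoh1, Sis, Lyz1, Muc2, Chga, Dclk1 and Fos, the 12 largest rises and 12 largest falls among called genes with a mean log2 CPM of at least 3 and no overlap between groups, and the 3 called members of each list with the smallest adjusted p. That rule leaves out sex-linked genes, predicted genes and segments of antigen receptors. Further genes given with values are outside it, and were chosen with their values in view. A few genes chosen this way are not reported here.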

Additional observations from a re-analysis of the deposited data

How the results depend on the processing

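Against 1026 called genes (473 higher, 553 lower), 2312 were called with no count filter (1092 higher, 1220 lower), 1952 by DESeq2 (934 and 1018) and 589 with all 13 libraries in 1 fit (301 and 288). Other scalings gave 1008 and 1017. Leaving out each library in turn gave 757 to 1783 (350 to 915 higher, 377 to 868 lower). Of the 1026 genes, 45.3% kept their call with all 13 libraries and 61.7% to 89% when a library was left out, and 0 were called in the opposite direction in any setting. With no count filter, members called in the list's direction were 11 for fat absorption (5), 15 for Paneth products (9), 12 for the fetal list (6), 11 for detoxification (7), 15 for the unfolded protein response (9), 10 for the clock (6) and 17 for duodenum-enriched genes (11), with the reported count in brackets. It also gave 9 stem cell signature (3), 5 Wnt (2), 8 nutrient transporter (2), 7 YAP and TEAD (4), 9 ribosomal protein (3) and 9 amino acid response genes (4) higher, and 7 BMP (3) and 11 respiratory chain genes (4) and 8 myeloid markers (3) lower. This setting also called 10 tuft cell genes lower (0). DESeq2 gave 10 for fat absorption, 12 for the fetal list and 15 for the unfolded protein response. The fit of all 13 libraries gave 3 brush border, 2 Paneth, 9 goblet, 13 cholesterol, 4 unfolded protein response and 7 microbe-induced genes. Without single libraries, counts ran from 4 to 10 for fat absorption and for the fetal list, 3 to 4 for metallothioneins, 16 to 32 for the interferon response, 2 to 9 for the clock and 3 to 7 for p53 targets. Dclk1 turned to a log2 fold change of 1.70 without stem cell replicate 2, and was -1.06 without replicate 1. The causes of these changes were not tested.

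Replicate numbers did not pair the samples: deviations of replicate 1 from its group mean correlated at 0.0154 between groups. With replicate as a block, 1011 genes were called (487 higher, 524 lower), and 15 of 265 called genes in the lists or named lost their call, among them Cdc20, Ndufb10, Sirpa and Mt4. Without H2-Q1 and H2-Q2, an alternative chosen after seeing the data, 7 members of the class II list were called lower, against 8. With 2 libraries in a group, small differences and genes with few counts cannot be resolved.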

Other observations

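Some genes differed more between replicates of a group than between the groups, and were picked after their values were seen. The alpha-defensin genes Defa20, Defa21 and Defa22 had 0, 1 and 28 counts in stem cell replicate 1. Stem cell replicate 2 had 16128, 22894 and 27272, and the organoids 5639 and 8520, 2338 and 3691, and 3817 and 6407. St6galnac1, a sialyltransferase of mucin glycans, had 12 counts in stem cell replicate 1, 881 in replicate 2, and 692 and 850 in the organoids. None of these genes was called (adjusted p from 0.616 to 0.98), and all of them share much sequence with other transcripts, so their counts are uncertain. Stem cell replicate 1 therefore stood apart from the other 3 libraries for these genes, while Lyz1 and Ang4 were high in both stem cell libraries.

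In the stem cell libraries, Thbs1, a secreted matrix protein, was at 661 and 349 CPM against 20.1 and 46.6 CPM in the organoids (log2 fold change -3.91 ± 0.49 SE, adjusted p = 0.00845). Tgfbi, another matrix protein, was at 77.04 and 48.6 against 4.76 and 4.04 CPM (log2 fold change -3.84 ± 0.30 SE, adjusted p = 0.00218). These genes, also picked with their values in view, were lower in both organoid libraries, while 10 of the stromal, endothelial and muscle markers had no count in any of the 4 libraries.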
